A study of Mus musculus with 28 samples.

Results

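The *Trp53* LSL-R172H allele was compared among colon organoids that had already been recombined and that all carried mutant *Braf*. The comparison used 8 of the 28 RNA-seq samples of the series, all treated with 4-hydroxytamoxifen (4-HT). The members were 4 BPAC samples from donor mice Col287 and Col312 and 4 BAC samples from donor mice Col286 and Col291. Both genotypes were on a C57BL/6N background and carried the *Villin*::CreERT2 transgene, 1 *Braf* floxV600E allele and *Apc* flox on both chromosomes, and only BPAC also carried 1 *Trp53* LSL-R172H allele beside its wild-type copy. *Villin* drives the Cre recombinase in intestinal epithelium, and 4-HT activates it, so that *Apc* is lost, BRAF V600E is made and the stop cassette before mutant *Trp53* is removed. Cultures were exposed to 3.5 µM 4-HT during 24 hours and harvested for RNA after 3 more days, while sister cultures received the solvent ethanol (EtOH). Each donor gave 2 cultures from distinct passages, called duplicates 1 and 2 here, so each genotype rests on 2 mice. The p values treat the cultures of a group as independent, and the spread behind them mixes differences between cultures and between mice. The age of the mice is not given in the sources used here.

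p53, encoded by *Trp53*, is a transcription factor that is stabilised by DNA damage and oncogenic stress. It raises genes that arrest the cell cycle (*Cdkn1a*), kill the cell (*Bax*, *Bbc3*), repair DNA (*Xpc*) and hold p53 itself in check (*Mdm2*, the ubiquitin ligase that degrades it). R172H, the mouse counterpart of a frequent human hotspot mutation, disturbs the fold of the DNA-binding domain. The mutant protein can impair the wild-type protein in mixed tetramers, and mutants of this kind have been reported to switch on gene programs of their own.

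The changed codon is shown because it is what distinguishes the mutant protein once the stop cassette, the other engineered part of the allele, has been removed. The codon of R172H lies in exon 5 of *Trp53* at chr11:69588511-69588513 of GRCm38 on the plus strand. The reference bases around it, read from the GENCODE transcript *Trp53*-203, carry the wild-type arginine codon in capitals.
Trp53 codon of R172H, chr11:69588499-69588525: gaggtcgtgagaCGCtgcccccaccat
The counts deposited are per gene, so reads of the wild-type and the mutant allele were not told apart.

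*Trp53* (chr11:69580359-69591873, plus strand) was read at like levels in both genotypes after recombination. In counts scaled to the TMM-normalized library size (CPM), BAC gave 215.4 and 196.8 in Col286 and 225.9 and 224.0 in Col291, and BPAC gave 209.6 and 147.6 in Col287 and 227.0 and 190.1 in Col312. The groups overlapped, and the lowest of the 8 values was duplicate 2 of Col287. The log2 fold change (BPAC minus BAC) was -0.15 ± 0.10 (SE, n = 4 and 4; adjusted p = 1 by edgeR), with a 95% interval from -0.37 to 0.06. Without duplicate 2 of Col287 it was -0.05. Before recombination the same donors differed, with 97.9 to 121.6 CPM in the EtOH-treated BAC samples and 51.4 to 60.1 CPM in the BPAC samples, which do not overlap. The log2 fold change with EtOH was -1.02 (adjusted p = 5.85e-06 by edgeR), 0.49 times the BAC level. The rise from EtOH to 4-HT was larger in BPAC than in BAC by 0.86 on the log2 scale. Its adjusted p was 0.063 by edgeR and 0.101 by limma-voom, over the threshold of 0.01, and 0.000355 by DESeq2, under it. With counts summed per donor the adjusted p was 0.341 by edgeR. With donor and duplicate number together as a covariate it was 0.0706 by edgeR, and both are over the threshold.

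**Figure D1:**
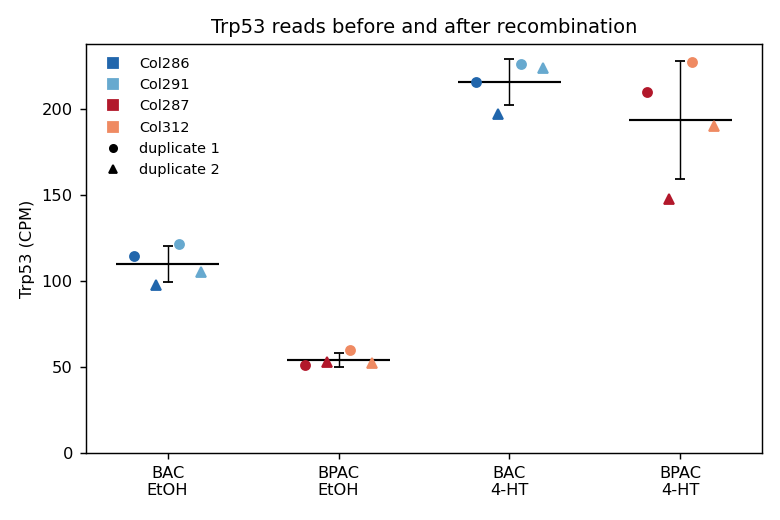
*Trp53* in CPM (y axis) in each BAC and BPAC sample with EtOH or 4-HT (x axis); colours are donors, circles duplicate 1, triangles duplicate 2, and bars the mean ± SD of 4 samples. The EtOH-treated BPAC samples sit between 51.4 and 60.1 CPM, below all other samples, and the 4-HT-treated groups overlap.

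Across all 13519 genes, 5 were higher in 4-HT-treated BPAC than in BAC organoids and none was lower at an adjusted p under 0.01, or 0.037% of the genes tested. At an unadjusted p under 0.05 there were 180 genes (1.33%), of which 133 were higher and 47 lower (0.348%). Without duplicate 2 of Col287 in BPAC there were 379 (2.8%), among them 2 of the p53 targets described below, and 5 genes passed the threshold. The number past it depended more on the BAC samples, with 2 or 3 genes when any 1 of the 4 was left out and 0 without Col291, and it was 2 with limma-voom. The median log2 fold change over all genes was -0.0013. For 184 genes (1.36%) the 4 BPAC values did not overlap the 4 BAC values. The totals were 26808611 to 40068718 counts in BAC and 27807434 to 38984515 in BPAC. All 10 colon epithelium markers, among them *Epcam* and *Cdx2*, were counted, and their summed level was 19040 to 23890 CPM in BAC and 18330 to 20780 CPM in BPAC. Of 10 markers each, 1 of fibroblasts and 3 of immune cells were among the genes counted, with sums of 3.45 to 6.07 and 2.65 to 4.45 CPM over both genotypes. Each genotype had 1 donor with *Xist* and 1 with Y-linked reads, so the sexes were balanced between the groups, and the Y-linked *Ddx3y* was at 6.38 and 11.7 CPM in Col287 of BPAC and 24.1 and 27.1 CPM in Col291 of BAC.

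None of the measured p53 target genes passed the threshold. The list held 80 genes in 6 groups by role, of which 75 were measured. By edgeR 1 of the 75 had an unadjusted p under 0.05 (1.33%, the same share as of all genes). By limma-voom and DESeq2 2 each had one, beside 1.55% and 1.5% of all genes, with 0 past the threshold by either. The median log2 fold change of the 75 was -0.02, with 30 above and 45 below 0. The 95% interval of the fold change lay within a log2 fold change of -1 to 1, that is within 2-fold either way, for 71 of the 75 targets (94.7%) and for 86.4% of all genes. It lay within -0.5 to 0.5 for 46 targets (61.3%) and for 63.8% of all genes. In bulk samples fewer cells of a kind and less RNA per cell cannot be told apart.

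**Figure D2:**
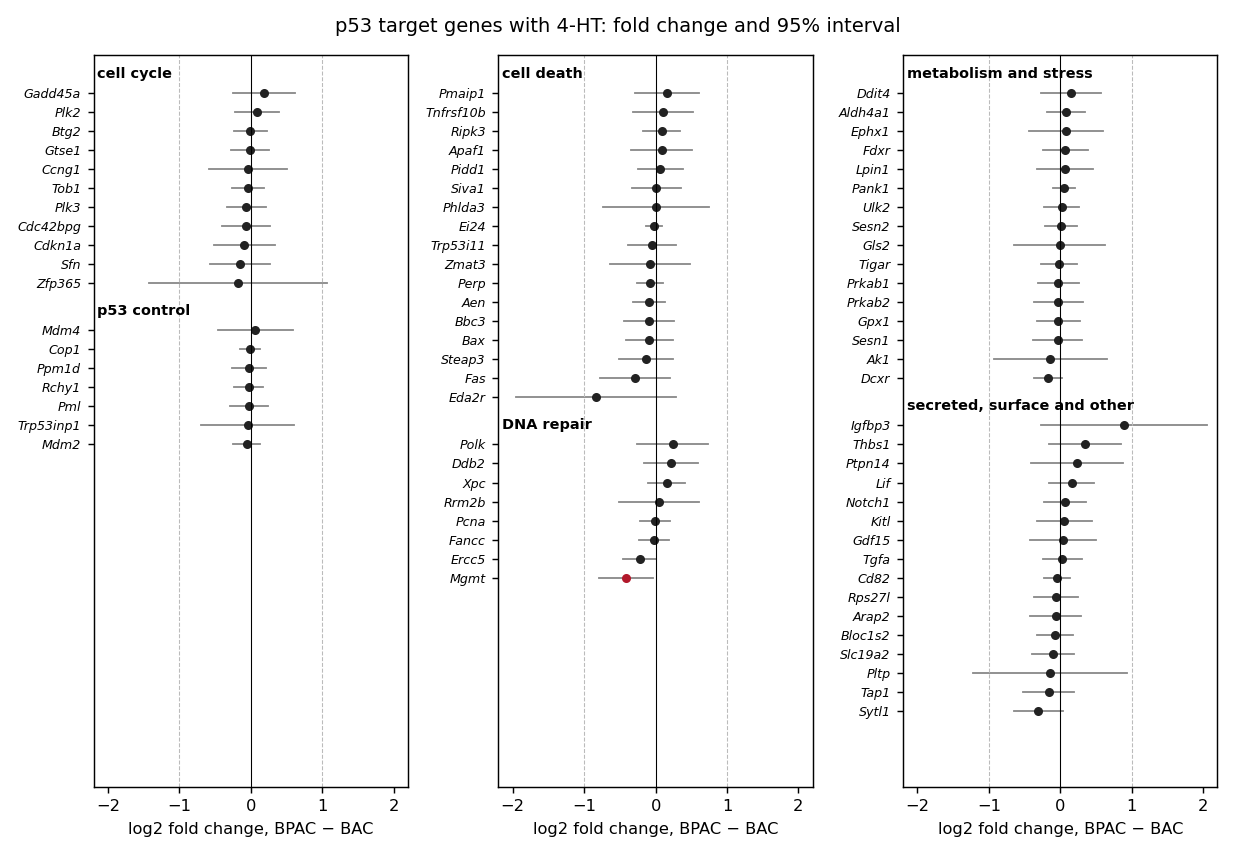
Log2 fold change (BPAC minus BAC, 4-HT; x axis) of the 75 measured p53 targets by role, with points for the estimate and lines for the 95% interval; dashed lines mark 2-fold. The red point, *Mgmt*, is the only target with an unadjusted p under 0.05, and no target passed the adjusted threshold.

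Of the 11 measured cell cycle targets, 2 lay above 0 and 9 below. *Cdkn1a*, which encodes the CDK inhibitor p21, gave 377.1 and 351.2 CPM in Col286 and 370.0 and 333.7 in Col291 of BAC, against 276.2 and 471.2 in Col287 and 309.4 and 286.7 in Col312 of BPAC. Duplicate 2 of Col287 was above every BAC sample and the other 3 BPAC samples were below them all. The log2 fold change was -0.09 ± 0.21 (adjusted p = 1 by edgeR), and its interval of -0.52 to 0.34 corresponds to 0.696 to 1.26 times the BAC level. *Ccng1*, cyclin G1, was at 293.6 to 436.9 CPM in BAC and 292.7 to 389.3 in BPAC, a log2 fold change of -0.04 ± 0.26. *Btg2*, an antiproliferative factor, was the target of this group nearest to 0 at -0.01 ± 0.11, with 92.1 to 96.6 CPM in BAC and 87.5 to 99.0 in BPAC. *Gadd45a*, a growth arrest gene, had the largest positive value of the group, 0.18 ± 0.21, with 25.0 CPM in duplicate 2 of Col287 and 11.1 to 15.2 CPM in the other 7 samples. Those 7 values overlapped between the genotypes.

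The 7 measured genes that control p53 had log2 fold changes from -0.06 to 0.06, and the intervals of all 7 lay within 2-fold. *Mdm2* was at 85.6, 92.7, 99.7 and 97.2 CPM in the BAC samples and at 85.3, 90.8, 93.8 and 91.1 CPM in the BPAC samples. The ranges overlapped, and the log2 fold change was -0.06 ± 0.09 with an interval from -0.24 to 0.13. *Mdm4*, the partner of *Mdm2*, was at 24.3 to 43.7 CPM in BAC and 26.4 to 43.7 in BPAC. *Mdm4* was higher in duplicate 2 than in duplicate 1 for all 4 donors. *Ppm1d*, the phosphatase that ends p53 activation, had a log2 fold change of -0.02 ± 0.12, and *Trp53inp1*, a stress-induced p53 cofactor, one of -0.05 ± 0.32.

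Of the 17 cell death targets, 7 lay above 0 and 10 below. *Bax*, which permeabilises mitochondria, was at 189.2 to 221.4 CPM in BAC and 159.6 to 235.4 in BPAC (log2 fold change -0.09 ± 0.16), and *Bbc3*, which encodes PUMA, was at 17.5 to 22.1 and 16.5 to 20.2 CPM (-0.09 ± 0.17). Both ranges overlapped. *Pmaip1*, which encodes NOXA, was at 46.8 CPM in duplicate 2 of Col287 and at 18.2 to 24.9 CPM in the other 7 samples. *Eda2r*, a receptor of the TNF receptor family on the X chromosome, had the most negative value of all 75 targets. Its levels were 11.97, 17.7, 14.1 and 21.6 CPM in the BAC samples and 8.31, 8.05, 8.47 and 11.7 CPM in the BPAC samples. The groups did not overlap, but the log2 fold change of -0.84 ± 0.54 had an interval from -1.95 to 0.28 and an unadjusted p of 0.135 (edgeR, adjusted p = 1).

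*Eda2r* was 1 of 3 targets without overlap between the groups, or 4.00% of the 75 beside 1.36% of all genes. The others were the DNA repair genes *Ercc5* and *Mgmt*. *Mgmt*, which removes alkyl groups from guanine, gave 11.2, 9.54, 14.6 and 8.93 CPM in BAC and 8.82, 8.38, 8.66 and 7.27 CPM in BPAC. The log2 fold change was -0.42 ± 0.18 (unadjusted p = 0.031, adjusted p = 1 by edgeR), and with EtOH it was -0.75. *Ercc5*, an endonuclease of nucleotide excision repair, was at 21.6 to 26.9 CPM in BAC and 19.2 to 20.96 in BPAC, a log2 fold change of -0.22 ± 0.11. The damage recognition genes *Xpc* and *Ddb2* had positive values of 0.15 ± 0.13 and 0.22 ± 0.18, so the 8 repair targets were split, 4 above and 4 below 0.

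The 16 measured targets in metabolism and stress had log2 fold changes from -0.17 to 0.15. *Sesn2*, a sestrin that restrains mTORC1, was at 49.7 to 71.1 CPM in BAC and 47.5 to 75.0 in BPAC, and *Tigar*, which lowers glycolytic flux, at 22.0 to 25.3 and 22.5 to 23.5 CPM. Neither separated the genotypes. Among the 16 secreted, surface and other targets, *Igfbp3*, which binds insulin-like growth factors, had the largest value, 0.89 ± 0.56. It was at 5.78 and 3.51 CPM in Col312, at 0.991 and 1.27 CPM in Col287 and at 0.992 to 2.38 CPM in BAC, so the samples above the BAC range came from 1 of the 2 BPAC donors. *Gdf15*, a stress cytokine, was at 32.2 to 74.7 CPM in BAC and 39.0 to 69.5 in BPAC.

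The promoter of *Cdkn1a* is shown because it held the p53 motif searched for in its paired form. The p53 consensus decamer, which reads alike on both strands, was searched from 250 bases before to 50 after each RefSeq gene start of GRCm38.p6. At least 1 decamer lay in 17 of the 88 promoters (19.3%) of the 66 targets found in that table and in 8.36% of all 32851 promoters. A pair of decamers with at most 13 bases between them lay in 1 target promoter and in 24 of all promoters (0.0731%). The target promoter was that of an upstream start of *Cdkn1a*, with decamers in capitals beginning 73 and 51 bases before the start. Capitals mark exact matches alone. The bases right after the second decamer, tgacatgttc, depart from the consensus at the first base and so stay in lower case. Which of these bases p53 binds was not tested.
Cdkn1a, chr17:29090729-29091028, plus strand: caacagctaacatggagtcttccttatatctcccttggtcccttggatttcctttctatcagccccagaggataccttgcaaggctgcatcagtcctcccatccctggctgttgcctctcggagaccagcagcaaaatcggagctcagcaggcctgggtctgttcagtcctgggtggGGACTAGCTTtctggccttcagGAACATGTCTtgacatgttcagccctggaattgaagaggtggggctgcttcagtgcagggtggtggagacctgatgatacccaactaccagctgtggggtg
Mdm2, chr10:117710709-117711008, minus strand: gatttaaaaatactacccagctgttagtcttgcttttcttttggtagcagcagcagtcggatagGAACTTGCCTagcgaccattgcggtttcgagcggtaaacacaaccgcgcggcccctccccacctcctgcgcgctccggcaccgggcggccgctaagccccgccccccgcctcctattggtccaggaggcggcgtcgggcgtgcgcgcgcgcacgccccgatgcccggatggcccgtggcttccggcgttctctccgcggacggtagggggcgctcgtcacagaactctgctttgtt
*Mdm2* is printed for comparison, with 1 decamer in capitals 186 bases before its start. A match describes letters only, and neither gene passed the threshold.

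Other genes of the p53 network were also without a call. The list of p53 family members and partners, which includes *Trp53*, had 11 of its 13 genes measured, *Trp63* and *Trp73* not being among the genes counted. None of the 11 had an unadjusted p under 0.05, and *Atm*, the kinase that signals DNA breaks, had the largest value, 0.24 ± 0.30. Of 20 cell cycle genes that p53 lowers through p21 and the DREAM complex, 12 lay above and 8 below 0, the extremes being *Plk1* at -0.08 ± 0.12 and *Chek1* at 0.13 ± 0.13, and the interval of each of the 20 lay within -0.5 to 0.5. The same held for all 15 mevalonate pathway genes and all 16 proteasome genes, both reported elsewhere as raised by mutant p53. These had medians of -0.04 and -0.02, beside -0.0013 over all genes. Of 9 measured genes from other reports on mutant p53, *Egr1* was lowest at -0.31 ± 0.27 and *Kmt2a* highest at 0.15 ± 0.20. Of the 15 ERK feedback genes, which report BRAF signalling, none had an unadjusted p under 0.05, 4 lay above and 11 below 0, and the intervals of all 15 lay within 2-fold. *Dusp6*, the ERK phosphatase, was at -0.12 ± 0.16.

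The senescence list held 2 of 12 measured genes with an unadjusted p under 0.05, beside 1.33% of all genes, and none past the threshold. *Cdkn2a*, which encodes p16 and p19ARF, was at 0.260, 0.339, 0.411 and 0.840 CPM in BAC, at 0.242 and 0.835 in Col287 and at 2.93 and 2.61 CPM in Col312. The BPAC donors therefore lay apart, with Col312 above every BAC sample and Col287 not. The log2 fold change was 1.86 ± 0.73 (adjusted p = 1 by edgeR), and without Col312 it was 0.20. *Ccl20*, a chemokine, was at 0.236 to 0.770 CPM in BAC and at 0.668 to 1.31 CPM in BPAC, with 1.27 ± 0.50 on the log2 scale. Marker lists of intestinal stem, goblet, colonocyte, enteroendocrine, tuft, fetal-like and gastric cells held no gene with an unadjusted p under 0.05. All 10 colonocyte markers and all 8 measured enteroendocrine markers lay below 0, with medians of -0.17 and -0.24, as did the 10 colon epithelium markers (-0.09), while 6 of the 10 stem cell markers lay above 0. The sums overlapped between the genotypes, with 4742 to 7143 CPM in BAC and 3343 to 8025 in BPAC for the colonocyte markers and 321 to 443.2 and 211.6 to 510.1 CPM for the enteroendocrine markers.

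The same allele was compared without mutant *Braf*, in 4-HT-treated PAC (4 samples, 2 donors) against AC organoids (2 samples, 1 donor). These share no sample with the BPAC and BAC groups. No gene passed the threshold there by edgeR, limma-voom or DESeq2, and 491 genes had an unadjusted p under 0.05 by edgeR. Among the 75 targets, 7 had one, all lower in PAC (9.33%, beside 1.5% of all genes), and the median was -0.15 with 52 below 0. *Mdm2* was at 67.8 and 95.9 CPM in AC and at 60.9 to 70.4 CPM in PAC, *Sesn2* at 58.0 and 61.7 against 40.1 to 48.0 CPM, and *Ephx1*, microsomal epoxide hydrolase, at 62.0 and 119.7 against 42.6 to 53.6 CPM. The PAC and AC ranges did not overlap for *Sesn2* and *Ephx1*. The other 4 were *Zfp365*, *Eda2r*, *Ercc5* and *Ak1*. *Zfp365* was at 0.9746 and 8.88 CPM in AC and at 0.9354 to 2.23 CPM in PAC. *Ak1* was at 0.9117 and 4.42 against 0.8455 to 1.40 CPM. *Eda2r*, at 10.97 and 26.8 against 4.44 to 9.955 CPM, and *Ercc5*, at 19.02 and 23.6 against 16.2 to 18.7 CPM, did not overlap. For *Mdm2*, *Zfp365* and *Ak1*, duplicate 1 of AC lay within the PAC range and only duplicate 2 of AC lay above it. All 7 were higher in duplicate 2 of AC than in duplicate 1. The difference between the comparisons with and without the *Braf* allele was itself tested and passed the threshold for no gene by edgeR, with 342 genes at an unadjusted p under 0.05 (2.53%), for 0 by limma-voom and for 1, *3830403N18Rik*, by DESeq2. The targets among those were *Sesn2*, where the BPAC fold change exceeded that of PAC by 0.42 (unadjusted p = 0.026, adjusted p = 1.00 by edgeR), and *Ephx1* (1.02, adjusted p = 1.00 by edgeR). In duplicate 1 both 4-HT-treated PAC samples held *Xist* together with Y-linked reads, 22.0 and 25.2 CPM of *Xist* and 12.96 and 13.8 CPM of *Ddx3y*, so they were not cleanly of 1 donor each. *Aqp8* had 5211 reads in Col290 and 4524 in Col313 there, beside 494 and 3008 in duplicate 2. For *Reg4* the reads were 2202 and 1895, beside 922 and 2493. The duplicate 1 samples may thus not be independent, yet the PAC values above and the shared spread count them as separate samples of 2 donors. In duplicate 2 alone, where both PAC donors were clean and AC was 1 sample assumed to vary like the other groups, 12 targets had an unadjusted p under 0.05 in PAC against AC, all lower (16% of the 75, beside 0.969% of all genes), and the median of the targets was -0.20, beside 0.0099 over all genes. The 1 AC sample used there is the one in which all 7 targets named above were higher than in duplicate 1. Lower targets in PAC and a high AC sample therefore cannot be told apart in duplicate 2. Duplicate 1 alone is not given for PAC against AC. In BPAC against BAC in duplicate 2 alone, 2 targets had an unadjusted p under 0.05, both higher (2.67%, beside 0.754% of all genes), and the median was -0.03.

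**Figure D3:**
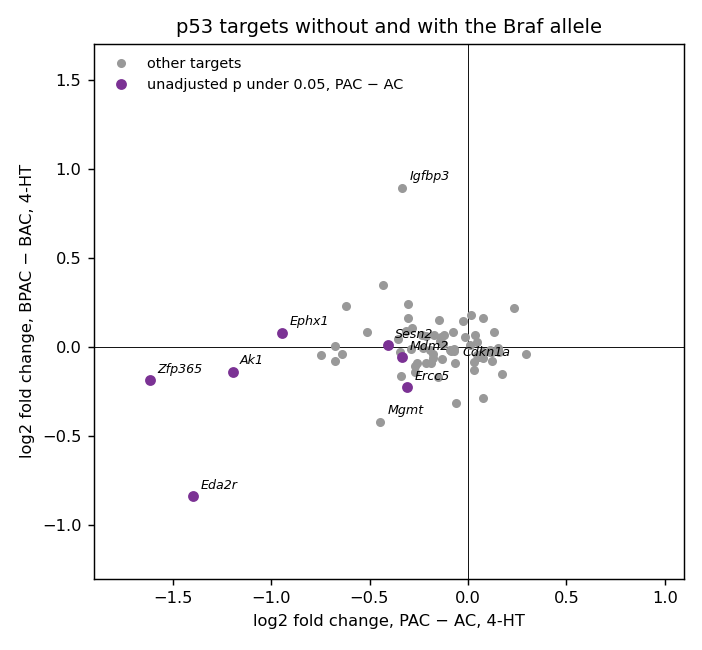
Log2 fold changes of the 75 p53 targets with 4-HT, without the *Braf* allele (PAC minus AC, x axis) and with it (BPAC minus BAC, y axis). The 7 purple points had an unadjusted p under 0.05 in PAC against AC and lie left of 0, while on the y axis all targets but *Eda2r* and *Igfbp3* lie within 0.5 of 0.

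The 5 genes that passed were *Scn2b*, *Pitx1*, *Hs3st2*, *Neto1* and *Gm47283*, none of them on the lists. *Scn2b* (chr9:45117782-45130070), which encodes a beta subunit of voltage-gated sodium channels, was at 1.49, 1.09, 1.26 and 0.910 CPM in BAC and at 6.33, 8.95, 6.21 and 6.34 CPM in BPAC. Every BPAC sample lay over every BAC sample, at 5.79 times the level (log2 fold change 2.53 ± 0.33, adjusted p = 0.000518 by edgeR). *Pitx1* (chr13:55825051-55836192), a homeobox factor of hindlimb and pituitary development, was at 0.204 to 0.386 CPM in BAC and 2.27 to 3.91 CPM in BPAC, 3.21 ± 0.42 on the log2 scale (adjusted p = 0.000518 by edgeR). *Neto1* (chr18:86394952-86506718), an auxiliary subunit of glutamate receptors, was at 0 to 0.105 CPM in BAC, from 0 to 3 reads a sample, and at 0.904 to 1.47 CPM in BPAC (4.56 ± 0.70, adjusted p = 0.003 by edgeR).

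*Hs3st2* (chr7:121391859-121501770), a heparan sulfate sulfotransferase, had 1 read in all BAC samples together and 96 in the BPAC samples, 15 to 34 each. The ratio of the rates was 91.9 with a 95% counting interval from 16.1 to 3670, and the fitted log2 fold change of 5.88 ± 0.79 (adjusted p = 0.0017 by edgeR) depends on the prior count. *Gm47283* is annotated on the Y chromosome from 90784738 to 90816464 and was read also in Col286 and Col312, the donors with *Xist*, in which the Y-linked *Ddx3y*, *Uty*, *Eif2s3y* and *Kdm5d* had at most 3 reads each in a sample. It was at 2.45 to 3.55 CPM in BAC and 7.11 to 11.1 CPM in BPAC (1.503 ± 0.235, adjusted p = 0.0032 by edgeR). Its reads may not be uniquely placed, and the counting of strands is not given in the sources used here, so antisense genes annotated across *Scn2b*, *Pitx1*, *Hs3st2* and *Neto1* cannot be told apart from them. With counts summed per donor, 2 donors a genotype, 0 of the 5 passed (adjusted p = 0.261 for *Scn2b* and *Pitx1* by edgeR, with 194 of all genes at an unadjusted p under 0.05). Without duplicate 1 of Col291 or either duplicate of Col286 only *Pitx1* and *Scn2b* passed, without duplicate 2 of Col291 these and *Neto1* did, and with limma-voom *Hs3st2* and *Gm47283*. In duplicate 1 or duplicate 2 alone and without either BAC donor none of the 5 passed, and the log2 fold change of *Scn2b* was 2.17 in duplicate 1 and 2.93 in duplicate 2.

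All 5 were also higher in BPAC before recombination, when the mutant allele carried its stop cassette. With EtOH 6 genes passed (0.0444%), these 5 higher and *Trp53* lower. *Scn2b* was at 21.03, 23.9, 13.95 and 13.8 CPM in the EtOH-treated BPAC samples and at 0.517 to 0.981 CPM in BAC, a fold of 25.0. *Hs3st2* had 177 reads in EtOH-treated BPAC and 0 in BAC, at least 63.8-fold higher against a floor of 3 reads over the group. After 4-HT *Scn2b*, *Pitx1*, *Hs3st2* and *Neto1* were lower in each of the 4 BPAC cultures than before it, while *Gm47283* was at 5.89 to 11.5 CPM with EtOH and 7.11 to 11.1 CPM with 4-HT. The 4-HT change of BPAC differed from that of BAC for none of the 13519 genes at the threshold (edgeR, 200 genes or 1.48% at an unadjusted p under 0.05; limma-voom 0 genes, DESeq2 1 gene, *Trp53*). For *Scn2b* that difference was -2.11 (unadjusted p = 0.000185, adjusted p = 1.00 by edgeR).

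The same 5 genes were also on the higher side in PAC against AC with 4-HT, with 0.90 for *Scn2b*, 2.01 for *Pitx1*, 2.27 for *Neto1* and 1.40 for *Gm47283* on the log2 scale, with *Hs3st2* at 0 reads in both AC samples and 41 in the PAC samples. None had an adjusted p under 0.01 by edgeR. For *Hs3st2* the PAC level was at least 7.2-fold higher against a floor of 3 reads over the AC group. In AC, *Scn2b* was at 1.36 and 1.09 CPM with EtOH and at 5.31 and 4.49 CPM with 4-HT. The ratio of *Pitx1* to *Scn2b*, both in CPM and not adjusted for gene length, was 0.381 to 0.486 in the EtOH-treated BPAC and 0.425 to 0.503 in the EtOH-treated PAC samples. After 4-HT it was 0.358 to 0.437 in BPAC and 0.191 to 0.284 in PAC. *B3gat1*, a glucuronyltransferase named after its values were seen, was likewise at 0 reads in all BAC samples and had 51 reads in 4-HT-treated BPAC, at least 16.3-fold higher against the same floor (adjusted p = 0.637 by edgeR).

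**Figure D4:**
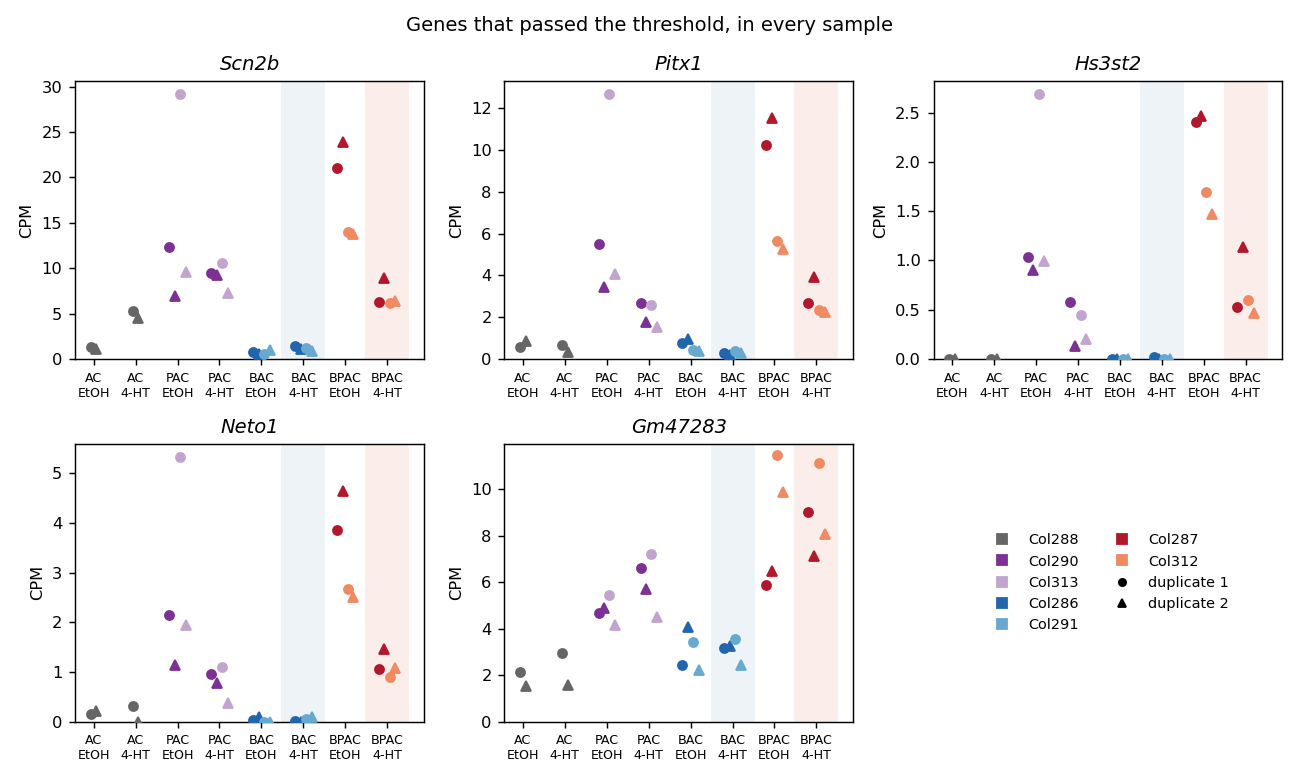
CPM (y axis, linear, from 0) of the 5 genes past the threshold in all 28 samples by genotype and treatment (x axis); colours are donors, circles duplicate 1 and triangles duplicate 2, with the 4-HT-treated BAC and BPAC groups shaded. The group means of *Scn2b*, *Pitx1*, *Hs3st2* and *Neto1* are highest in EtOH-treated BPAC, then in EtOH-treated PAC, while single samples overlap, *Scn2b* being at 6.89 to 29.2 CPM in EtOH-treated and 7.32 to 10.6 CPM in 4-HT-treated PAC.

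The promoters of *Scn2b* and *Hs3st2* are shown because these genes passed the threshold while no p53 target did. *Pitx1* and *Gm47283* are named only. The decamer searched above did not occur in either window, which says only that those letters are not there.
Scn2b, chr9:45117626-45117925, plus strand: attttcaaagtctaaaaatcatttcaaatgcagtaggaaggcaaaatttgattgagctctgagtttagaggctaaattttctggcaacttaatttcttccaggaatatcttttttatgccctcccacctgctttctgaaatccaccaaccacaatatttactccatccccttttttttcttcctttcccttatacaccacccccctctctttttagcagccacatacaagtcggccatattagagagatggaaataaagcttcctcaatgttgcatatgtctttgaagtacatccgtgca
Hs3st2, chr7:121392046-121392345, plus strand: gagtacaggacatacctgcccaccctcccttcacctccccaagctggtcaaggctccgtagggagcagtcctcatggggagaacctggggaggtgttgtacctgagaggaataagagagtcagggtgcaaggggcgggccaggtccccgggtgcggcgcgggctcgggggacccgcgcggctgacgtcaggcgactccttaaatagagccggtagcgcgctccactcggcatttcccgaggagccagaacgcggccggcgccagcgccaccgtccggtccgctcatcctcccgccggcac

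Genes close to *Trp53* on chromosome 11 were examined because a targeted allele and its flanking DNA are inherited together, and an effect of the mutation and one of linked sequence cannot be told apart in this design. Of the 277 genes that start within 10 Mb of *Trp53*, 13 (4.69%) had an unadjusted p under 0.05 by edgeR, 8 higher and 5 lower in BPAC, against 1.85% of the 810 genes on the rest of the chromosome and 1.22% of the 12432 genes elsewhere. With EtOH the shares were 6.86%, 6.3% and 4.87%, and in PAC against AC with 4-HT, where the same allele was compared, 3.97%, 3.33% and 3.64%. Among the 13, 6 had an unadjusted p under 0.05 in the same direction with EtOH too, beside 7 of 15 on the rest of the chromosome and 44 of 152 elsewhere. The window was chosen with the values known, and its genes fall outside the rule by which the others were named.

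The closest of these to the threshold was *Arhgap44*, 4.58 Mb before *Trp53*. It was at 0.496, 1.19, 0.488 and 0.735 CPM in BAC and 2.71, 2.07, 4.40 and 4.10 CPM in BPAC. The groups did not overlap, with a log2 fold change of 2.21 ± 0.40 (adjusted p = 0.027 by edgeR). It passed with DESeq2 (adjusted p = 6.7e-05), with the duplicate number as a covariate (adjusted p = 0.0092 by edgeR) and at a threshold of 0.05. In the other 25 of the 28 alternatives it did not pass, and over all 28 the log2 fold change ranged from 1.68 to 2.82. In the main fit the log2 fold change was 2.24 with EtOH and 2.41 in PAC against AC. *B9d1*, a gene of the ciliary transition zone, was at 3.47 to 5.97 CPM in BAC and 6.24 to 9.85 in BPAC (0.71 ± 0.18, adjusted p = 0.675 by edgeR). *Gps2*, a subunit of the NCoR corepressor complex and 0.334 Mb from *Trp53*, was at 36.1 to 40.8 CPM in BAC and 25.0 to 30.9 in BPAC (-0.40 ± 0.11). Both *B9d1* and *Gps2* showed no overlap between the genotypes. *Wrap53*, the neighbour of *Trp53* on the opposite strand, was at 27.7 to 31.0 CPM in BAC and 25.7 to 34.1 CPM in BPAC.

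**Figure D5:**
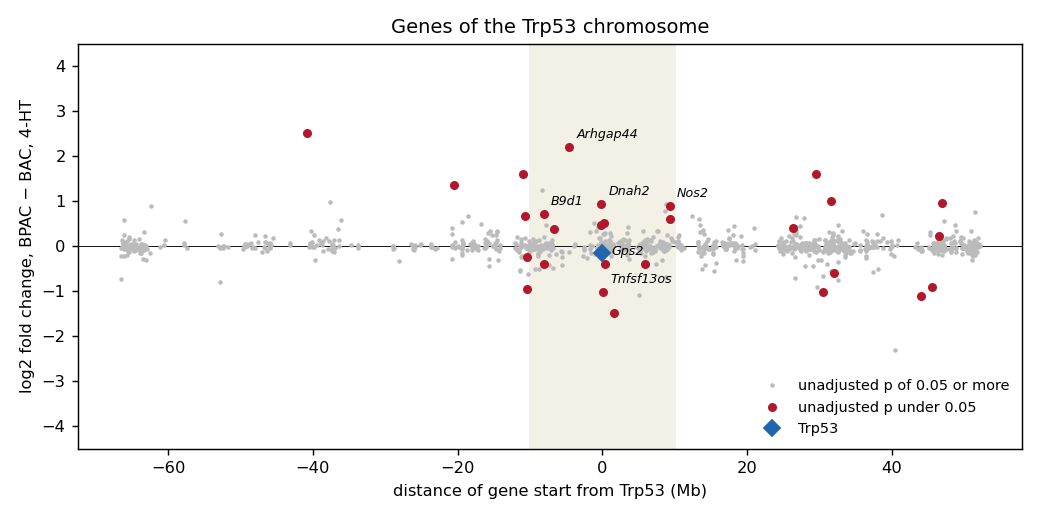
Log2 fold change (BPAC minus BAC, 4-HT; y axis) of each gene tested on the chromosome of *Trp53* against the distance of its start from that of *Trp53* in Mb (x axis), with the 10 Mb window shaded. Red points had an unadjusted p under 0.05, 13 of 277 in the window.

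Donors of the same genotype also differed. In BPAC, Col312 and Col287 differed at the threshold in 4 genes, *Rims2*, *Slc15a2*, *4933404O12Rik* and *Gm8116*, and in 583 genes at an unadjusted p under 0.05. In BAC, Col286 and Col291 differed in 2 genes, *Slfn9* and *Gm21887*, and in 107 at an unadjusted p under 0.05 (edgeR, spread between duplicates). No p53 target was among the 6 genes.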

How the data were processed

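Total RNA of colon organoids was sequenced by the authors, trimmed with Trimmomatic 0.39 and aligned to GRCm38 with STAR 2.5.2b, per the submitters' processing notes. Unnormalized whole-number read counts were deposited by the authors for 13519 Ensembl genes and 28 samples, and GENCODE vM21 gave a symbol for 13479 of the genes. The counting program and its strandedness are not given in the sources used here.

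Counts were normalized with TMM and fitted with the quasi-likelihood test of edgeR 4.0.16 in R 4.3.3, with 8 combinations of genotype and treatment and one spread for all samples. Benjamini-Hochberg adjustment covered all 13519 genes, and an adjusted p under 0.01 was called. The SE of a log2 fold change is its size over the square root of F, and gave the 95% intervals. CPM values use TMM-scaled library sizes, and a count of 3 was the floor. Counting intervals and floors cover counting error only. The tests were tested on simulated data. Those data held no differences between donors or duplicate numbers, so the p values were not checked against such differences. The 8 samples had 26808611 to 40068718 counts, and no pair agreed within sampling noise (chi-square per degree of freedom 8.44 or more).

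The comparison and the gene lists were chosen with earlier results of these data known. Named were *Trp53*, genes of the p53 target and p53 family lists, every gene past the threshold with a mean of at least 10 counts over the 8 samples (12 at most in each direction), and up to 3 extreme genes of each other list. *Arhgap44*, *B3gat1*, *B9d1*, *Gps2*, *Wrap53*, *Aqp8*, *Reg4*, the genes just outside the 10 Mb window and the genes that differed between donors were named after their values were seen. Alternatives were limma-voom (limma 3.58.1), also with the donor as a random effect, DESeq2 1.42.0, other size factors and filters, fewer samples, the duplicate number as a covariate, counts summed per donor, and samples, donors or duplicates left out. Chosen after seeing the data were the fit without PAC, a term for *Xist*, the spread between duplicates of a donor, and duplicate 2 alone for PAC against AC. Promoter sequences and starts came from RefSeq (GRCm38.p6). The unnumbered 4-HT sample of Col291 was counted as duplicate 1, as the other is labelled 2. Reads and exome data were not analysed here.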

Additional observations from a re-analysis of the deposited data

Results flagged for a closer look

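For 41 of the genes given a level or fold change above, the groups of 4 BAC and 4 BPAC samples with 4-HT were checked for a sample far from the other 3 (Dixon's test at its 95% critical value), which chance gives in about 1 of 20 groups. Of 81 groups with any spread, 9 held such a sample, and 4 of the 9 were duplicate 2 of Col287 in BPAC. There *Cdkn1a* was at 471.2 CPM (276.2 to 309.4 in the other BPAC samples), *Pmaip1* at 46.76 CPM (18.5 to 19.6), *Gadd45a* at 25.0 CPM (11.1 to 12.95) and *Scn2b* at 8.946 CPM (6.21 to 6.34). Without this sample the number of genes at an unadjusted p under 0.05 rose from 180 to 379 (edgeR), the number past the threshold was again 5, and *Cdkn1a* had a log2 fold change of -0.30.

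*Eda2r* was at 11.68 CPM in duplicate 2 of Col312 and at 8.05 to 8.47 CPM in the other BPAC samples. *Pmaip1* was at 18.24 CPM in duplicate 2 of Col291 in BAC and at 24.2 to 24.9 CPM in the other BAC samples. *Hs3st2* was at 0.02361 CPM, 1 read, in duplicate 1 of Col286 and at 0 in the other BAC samples. *Chek1* was at 18.13 CPM in duplicate 2 of Col291 in BAC (15.6 to 15.9 in the others), and *Kmt2a* at 27.07 CPM in duplicate 1 of Col312 in BPAC (22.99 to 23.1).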

How the results depend on the processing

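No p53 target passed the threshold under any of the 28 alternatives, and the log2 fold change of *Trp53* stayed between -0.32 and -0.04 without passing. The number of genes that differed between 4-HT-treated BPAC and BAC, 5 in the report, ranged from 0 to 8. It was 2 with limma-voom, with or without the donor as a random effect, 8 with DESeq2, 3 among genes with a mean of at least 50 counts, 2 in a fit of the 8 samples alone, with or without a term for *Xist*, 8 with the spread taken between the duplicates of a donor, and 0 with counts summed per donor or in duplicate 1 or duplicate 2 alone. Leaving out 1 sample or 1 donor gave 0 to 6 genes: 0 without Col291, 3 without Col286 (*Slfn9*, *Dynlt1b* and *Tmem181b-ps*, none of the 5), 2 without Col312 and 6 without Col287. It gave 2 without duplicate 1 of Col291 and without either duplicate of Col286, and 3 without duplicate 2 of Col291. The log2 fold changes of the 5 genes stayed positive throughout, for *Scn2b* from 2.17 to 2.93 (adjusted p from 2.17e-11 to 0.261) and for *Pitx1* from 2.83 to 3.65 (adjusted p from 1.77e-10 to 0.459).

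With EtOH, 12 genes passed with DESeq2 and 2 with counts summed per donor, *Trp53* and *Scn2b*, in place of 6. The 4-HT change differed between BPAC and BAC for 1 gene and the allele's effect with and without mutant *Braf* for 1 gene with DESeq2, in place of 0. Values of targets near 0 changed sign: *Ccng1* was 0.034 in duplicate 1 alone and *Cdkn1a* 0.15 in duplicate 2 alone, and with a sample or donor left out *Cdkn1a* ranged from -0.30 to 0.062, *Mdm2* from -0.13 to 0.019, *Ccng1* from -0.15 to 0.086 and *Bax* from -0.20 to 0.011. The cause of these shifts was not tested.

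The duplicate number as a replicate block gave 6 genes, with *Arhgap44* added (adjusted p = 0.0092 by edgeR), and 6 with EtOH. Deviations from the group mean correlated at 0.047 to 0.394 in 8 pairs of BAC and BPAC samples with the same number, over 0.1 in 6, and at -0.33 to 0.005 in 8 pairs with different numbers. The deviations cancel out within each group, so higher values in the former pairs force lower values in the latter. These ranges are therefore not separate results. Chi-square per degree of freedom was 8.44 and 11.8 for BAC pairs of the same number and 31.7 and 43.5 for BAC pairs of the same donor. In BPAC it was 26.8 and 39.2 against 76.7 and 47.9. What samples of the same number share beyond the label is not given, and the main fit, with its intervals, has no term for it. With 2 donors a genotype, the data limit what can be said of the genotypes beyond these mice.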
